A study of Mus musculus with 4 samples.

Results

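Levels of mRNA in mouse small intestinal (SI) organoids were followed for 10 genes of epidermal growth factor (EGF) signaling. These 10 were taken from the 55487 genes in the deposited tables. They comprised 3 ErbB receptors (Egfr, Erbb2 and Erbb3), 5 ligands (Areg, Ereg, Hbegf, Tgfa and Btc) and 2 receptor feedback inhibitors (Lrig1 and Errfi1). The genes were chosen by name for their role, by a rule that used no measured level but with earlier results of these data known, and each symbol matched 1 identifier. All 10 were among the 17155 genes with enough reads to be tested.

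The organoids were epithelial cultures grown from mouse intestinal crypts in IntestiCult medium. One group had been infected with a lentivirus carrying the miR-181a-5p mimic and the other with a lentivirus carrying the miRNA mimic control, and both were kept under puromycin (2 ug/ml) to select infected cells. RNA-seq was available for 2 control libraries (replicates 1 and 2) and for 2 libraries with the mimic (replicates 3 and 4). Virus infection and puromycin were therefore shared by both groups, and strain, sex and age of the source mice, the promoter that drives the mimic and the time of harvest are not given in the sources used here. It is also not stated whether the 2 libraries of each group represent separate mice or infections, so the p-values measure the spread between these libraries, which may be technical.

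EGF family ligands are made as membrane-anchored precursors and are shed by proteases of the ADAM family. The released ligand brings ErbB receptors together in pairs, and the activated receptors signal through adaptors to the Ras and MAP kinase cascade and to PI3 kinase. ERK, the last kinase of the cascade, induces early response genes and also genes whose products shut the pathway down. In the intestinal crypt, ErbB signaling supports proliferation of stem and progenitor cells, and Lrig1 is known there as a brake on ErbB receptors in stem cells.

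The mature sequence of the miRNA that the mimic supplies is shown first, because the groups differ by it. The sequence is from RefSeq (GRCm38.p6), where it lies at chr1:137966468-137966490 (Mir181a-1) and chr2:38852741-38852763 (Mir181a-2), both on the plus strand. Capitals mark the seed, bases 2 to 8.
mmu-miR-181a-5p: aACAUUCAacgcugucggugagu
The 7-base match to this seed, TGAATGT on the mRNA strand, was sought in the longest annotated 3' untranslated region (UTR) of each gene. It was present in 3 of the 10 genes (30%), in 21 of 73 further genes of the EGF pathway (28.8%) and in 2468 of the 12913 tested genes with a 3' UTR of at least 50 bases (19.1%). The 4 matches in the 3 genes are shown with their neighbouring bases and with the match in capitals.
Egfr, chr11:16915962-16915968, plus strand: tttctcttaggTGAATGTctagcattatt
Ereg, chr5:91093320-91093326, plus strand: catgatgccttTGAATGTcatagagcata
Ereg, chr5:91093471-91093477, plus strand: ttattggattaTGAATGTtatcagagtac
Btc, chr5:91359227-91359233, minus strand: gctagcagaaaTGAATGTttaaatattgt
None of these 4 matches was followed by an A. The letters TGAATGT were not found in the 3' UTR of Erbb3, Areg or Hbegf, the 3 members that fell, nor in that of Erbb2, Tgfa, Lrig1 or Errfi1. A match is a description of the letters and does not show that the miRNA binds there.

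The libraries held 31104900 to 38111700 expected counts (RSEM's estimates of reads per gene), and the common biological coefficient of variation between replicates was 0.13. Within each group the libraries differed by more than sampling noise (chi-square over its degrees of freedom 30.4 between the controls and 16.5 between the mimic libraries). Over all tested genes the median log2 fold change, mimic over control, was -0.01. The labelled cell type, intestinal epithelium, was borne out by its markers. Summed over 8 epithelial markers such as Epcam and Vil1, the level was 3334 and 3409 TPM (a length-normalized level) in the controls against 3019 and 3577 TPM with the mimic. Mesenchymal markers summed to between 2.76 and 7.45 TPM in any library, with Col1a2, Col3a1 and Dcn at 0 counts throughout. Leukocyte markers summed to between 3.41 and 6.08 TPM, with Ptprc at 1 to 5 counts per library. Endothelial markers summed to at most 0.39 TPM, and Cdh5, Kdr and Emcn were at 0. The mitochondrial share of the counts was 4.30% and 4.55% in the controls against 3.46% and 3.43% with the mimic, and histone genes took 0.615% and 0.487% in the controls against 0.726% and 0.725% with the mimic. Both shares moved with the group, and their part in the results was not tested.

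Among the 10 genes, 3 were lower with the miR-181a-5p mimic (Hbegf, Areg and Erbb3) and 1 was higher (Ereg), at an adjusted p under 0.05. By the edgeR quasi-likelihood test, with Benjamini-Hochberg adjustment, 3.38% of all tested genes passed this threshold, with 1.21% higher and 2.17% lower. When a change of at least 2-fold was also required, Hbegf and Areg remained lower and Ereg remained higher, against 1.42% of all tested genes lower and 0.554% higher (1.98% in either direction). The other 6 genes did not pass. CPM (counts scaled to library size) of the groups did not overlap for 9 of the 10 genes, 8 lower and 1 higher with the mimic, a criterion that 58.4% of all tested genes met (29.5% lower and 28.9% higher). The median log2 fold change of the 10 genes was -0.37. In these bulk libraries fewer cells of a type and less RNA per cell cannot be told apart.

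**Figure D1:**
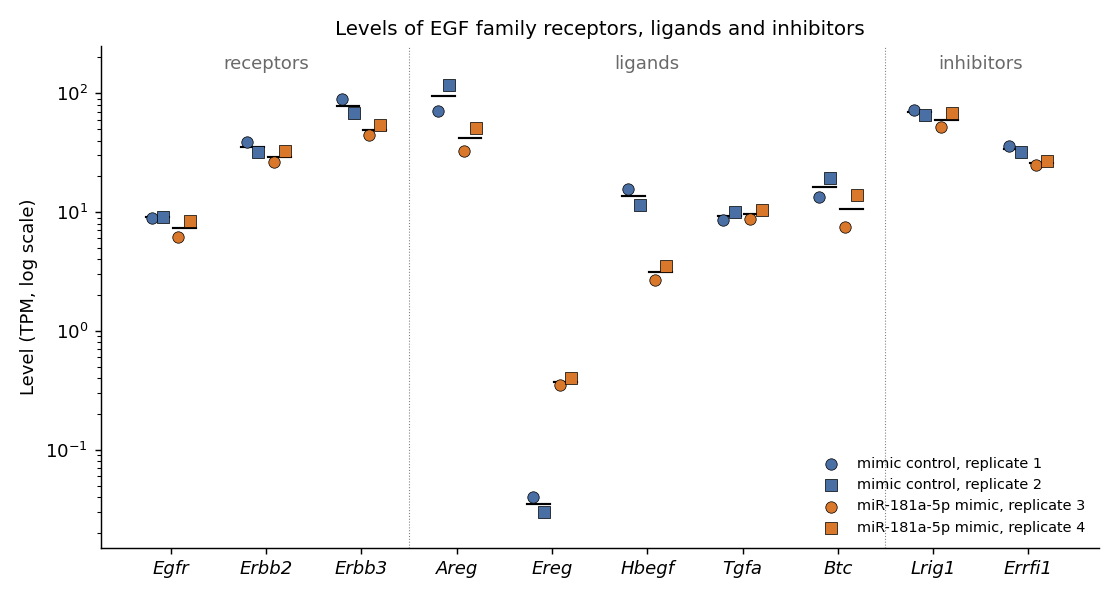
Level of each gene in TPM on a log axis, with 1 point per library (blue, mimic control; orange, miR-181a-5p mimic) and a black bar at the mean of the 2 libraries. Hbegf lay at 11.5 TPM or above in both controls and at 3.55 TPM or below in both mimic libraries, whereas Ereg was the only gene of the 10 under 1 TPM in every library.

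**Figure D2:**
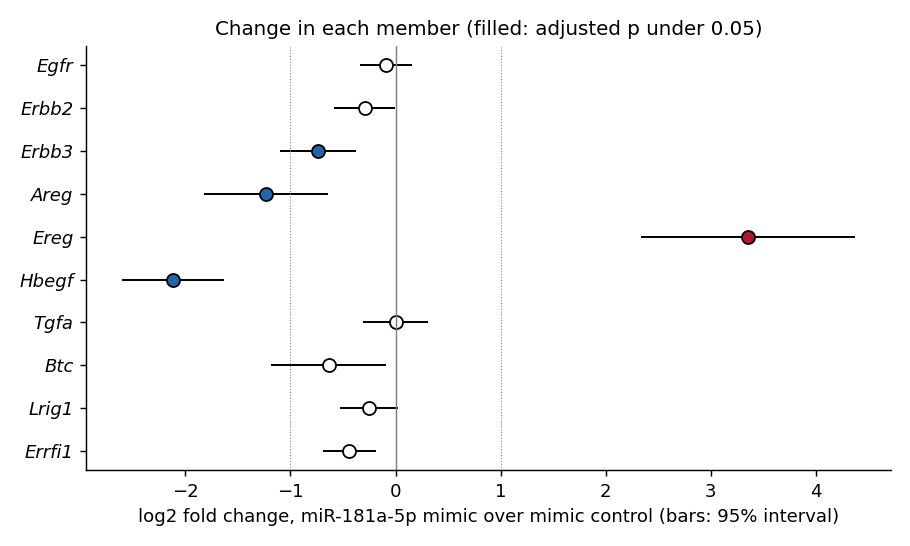
Log2 fold change of each gene, miR-181a-5p mimic over mimic control, from edgeR (point), with its 95% confidence interval (bar) and dotted lines at a fold change of 2. Filled points passed an adjusted p of 0.05: Hbegf (-2.12), Areg (-1.23) and Erbb3 (-0.74) to the left and Ereg (3.35) to the right.

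In length-normalized units, Erbb3 was the most abundant of the receptor genes in every library. Erbb3 encodes a receptor with little kinase activity of its own that binds neuregulins and signals after pairing with ErbB2. Erbb3 (ENSMUSG00000018166, GRCm38 chr10:128567523-128589652, minus strand) had 89.1 and 67.9 TPM in the controls against 44.3 and 54.5 TPM with the mimic. Both mimic libraries were below both controls. The expected counts behind these levels were 17154 and 10440 in the controls against 6919 and 8870 with the mimic. On the log2 scale Erbb3 changed by -0.74 (standard error, SE, 0.15, 95% interval -1.09 to -0.39), a 1.67-fold lower level, with an adjusted p of 0.0481 from the edgeR quasi-likelihood test. This call lay close to the threshold and was lost without control replicate 1 (log2 fold change -0.53, adjusted p = 0.0503 in edgeR) and without mimic replicate 3 (-0.65, adjusted p = 0.132 in edgeR). It was also lost with library totals in place of TMM factors (adjusted p = 0.0551 in edgeR).

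Erbb2 encodes the ErbB receptor without a known ligand, the preferred partner of the others. Erbb2 (chr11:98412470-98437716, plus strand) had 38.5 and 32.2 TPM in the controls against 26.2 and 32.5 TPM with the mimic, so the groups overlapped in TPM, although in CPM both mimic libraries were the lower ones. Its log2 fold change was -0.29 (SE 0.12, adjusted p = 0.185 in edgeR). Exons of Erbb2 overlap those of Mien1 on the opposite strand. Reads of the 2 genes there could be mixed, since it is not stated that strand was used in counting. The expected counts of Erbb2 were whole in all 4 libraries, however, which gave no sign of reads divided between genes.

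Egfr encodes the receptor that EGF, amphiregulin and TGF-alpha bind directly. Egfr (chr11:16752203-16918158, plus strand) had 8.90 and 9.12 TPM in the controls against 6.18 and 8.44 TPM with the mimic. From the counts, which were 1545 and 1213 in the controls against 1124 and 1375 with the mimic, its log2 fold change was -0.09 (SE 0.10, 95% interval -0.33 to 0.14, adjusted p = 0.610 in edgeR). This interval leaves room for a fall of up to 1.26-fold and a rise of up to 1.11-fold. Erbb4, the remaining receptor gene of the family, had 0 counts in all 4 libraries.

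Summed over the 4 receptor genes, the level was 136.5 and 109.2 TPM in the controls against 76.7 and 95.4 TPM with the mimic. Erbb3 made up 65.3% and 62.2% of this sum in the controls against 57.8% and 57.1% with the mimic. The share of Erbb2 was 28.2% and 29.4% in the controls against 34.1% and 34.04% with the mimic. The Erbb3 share was thus lower, and the Erbb2 share higher, in both mimic libraries, while the shares of Egfr overlapped (6.52% and 8.35% against 8.06% and 8.84%). Shares of one sum are tied to each other, and they were not tested.

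Hbegf showed the largest fall of the 10 genes. It encodes heparin-binding EGF-like growth factor, which binds EGFR and ErbB4 and is induced in epithelia by injury and by ERK activity. Hbegf (ENSMUSG00000024486, chr18:36504927-36515805, minus strand) had 1109 and 668 counts in the controls against 157 and 235 counts with the mimic. In TPM this was 15.8 and 11.5 in the controls against 2.68 and 3.55 with the mimic, and the highest mimic library was well below the lowest control. Hbegf was 4.34-fold lower with the mimic (log2 fold change -2.12, SE 0.20, 95% interval -2.60 to -1.64, adjusted p = 0.0058 in the edgeR quasi-likelihood test). Whichever library was left out, the log2 fold change stayed between -2.33 and -1.89 and the adjusted p in edgeR stayed at or under 0.00195.

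Areg, which encodes amphiregulin, a ligand of EGFR, was the most abundant ligand gene in every library. Areg (ENSMUSG00000029378, chr5:91139599-91148432, plus strand) had 70.9 and 117.4 TPM in the controls against 32.9 and 51.3 TPM with the mimic. The groups did not overlap, but in each group the higher library was well above the lower one. Its log2 fold change was -1.23 (SE 0.25, 95% interval -1.81 to -0.65), a 2.35-fold lower level, with an adjusted p of 0.0470 from the edgeR quasi-likelihood test. Control replicate 2 held the highest value, and without it the log2 fold change was -0.83 (adjusted p = 0.0228 in edgeR). Without mimic replicate 3 it was -0.99, so in both cases the fall was under 2-fold. In DESeq2 the adjusted p of Areg was 0.0610, so the call was lost there.

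Ereg encodes epiregulin, a ligand of EGFR and ErbB4, and moved in the opposite direction at a far lower level. Ereg (ENSMUSG00000029377, chr5:91074622-91093646, plus strand) had 5 and 3 counts in the controls against 37 and 44 counts with the mimic. In TPM it had 0.04 and 0.03 in the controls against 0.35 and 0.40 with the mimic, so its 2 mimic libraries lay close together and far above the controls. Summed over each group, 8 control counts stood against 81 mimic counts, a ratio of 10.5 per library size with an exact 95% counting interval of 5.08 to 25.1, which covers counting error only. The log2 fold change was 3.35 (SE 0.43, 95% interval 2.34 to 4.36, adjusted p = 0.0133 in the edgeR quasi-likelihood test), and it lay between 3.18 and 3.59 whichever library was left out. Ereg passed the filter on low counts through its mimic libraries, and its exons overlap those of Gm19610 on the opposite strand. Both seed matches of Ereg lie in its 3' UTR of 3501 bases.

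Btc encodes betacellulin, which binds EGFR and ErbB4. Btc (chr5:91357261-91402994, minus strand) had 32.1 and 40.9 CPM in the controls against 17.7 and 29.2 CPM with the mimic. The groups were apart in CPM, but in TPM mimic replicate 4 (13.9) exceeded control replicate 1 (13.3). Its log2 fold change was -0.64 (SE 0.23, 95% interval -1.17 to -0.10), and it did not pass the threshold (adjusted p = 0.152 in edgeR). The value was set in part by mimic replicate 4, without which the log2 fold change was -1.04 (adjusted p = 0.0100 in edgeR), and without mimic replicate 3 it was -0.32.

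Tgfa encodes transforming growth factor alpha, a ligand of EGFR that normal gut epithelium makes. Tgfa (chr6:86195223-86275719, plus strand) had 8.54 and 9.93 TPM in the controls against 8.72 and 10.4 TPM with the mimic. The groups overlapped, and the log2 fold change was 0.00 (SE 0.13, adjusted p = 0.995 in edgeR). Its 95% interval of -0.30 to 0.30 limits any change to 1.23-fold in either direction. Its sign turned to -0.01 with a filter of 10 counts in every library.

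Areg, Ereg and Btc lie in 1 cluster of ligand genes on chromosome 5, together with Epgn (epigen), within 376 kb. Ereg starts 39.4 kb after the end of Epgn, Areg starts 46.0 kb after Ereg, and Btc follows at 209 kb on the other strand. Over these neighbours the changes went in different directions. Areg fell, Ereg rose from near 0, Btc did not pass the test, and Epgn was not tested, with 0.17 and 0.16 TPM in the controls against 0.07 and 0.17 TPM with the mimic.

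**Figure D3:**
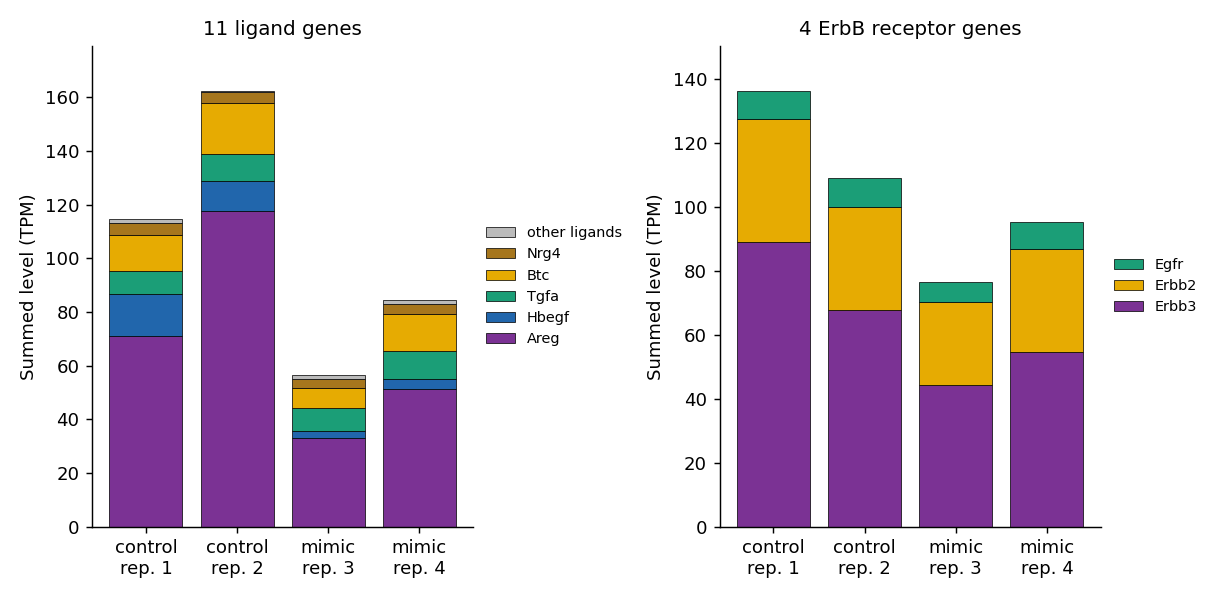
Summed level in TPM of 11 ErbB ligand genes (left) and of the 4 receptor genes (right) in each library, with the parts of the bar showing single genes and the bars starting at 0. The ligand sum was 114.5 and 162.4 TPM in the controls against 56.5 and 84.4 TPM with the mimic, and Areg was the largest part in each bar.

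The summed level of 11 ErbB ligand genes, which added Egf, Epgn and the neuregulin genes Nrg1 to Nrg4 to the 5 ligands, was lower in both mimic libraries than in either control. It was 114.5 and 162.4 TPM in the controls against 56.5 and 84.4 TPM with the mimic. Areg made up 61.9% and 72.3% of the sum in the controls against 58.2% and 60.8% with the mimic. The share of Hbegf was 13.8% and 7.05% in the controls against 4.75% and 4.21% with the mimic, whereas that of Tgfa was 7.46% and 6.11% in the controls against 15.4% and 12.3% with the mimic. Ereg contributed at most 0.620% in any library, so its rise added little to the sum. Among the added ligands, Nrg4, a ligand of ErbB4, was the most abundant with 4.73 and 4.01 TPM in the controls against 3.46 and 3.69 TPM with the mimic (log2 fold change -0.28, adjusted p = 0.418 in edgeR). Egf itself had between 0.24 and 0.78 TPM in the 4 libraries (adjusted p = 0.610 in edgeR), and Nrg1, Nrg2 and Nrg3 were at most 0.20 TPM in any library.

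The order of the levels in TPM changed between the groups. In the controls Areg (mean 94.2), Erbb3 (78.5) and Lrig1 (69.4) led, and each overlapped its neighbour in this order. Erbb2 and Errfi1 followed at 35.3 and 33.95 TPM, then Btc (16.3) and Hbegf (13.6), then Tgfa (9.24) and Egfr (9.01), with each of these pairs overlapping within itself, and Ereg came last. With the mimic, Lrig1 (59.6) led, Erbb3 (49.4) overlapped both it and Areg (42.1), and Hbegf (3.12) stood below Egfr (7.31) without overlap.

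The 2 feedback inhibitors did not pass the test. Lrig1 encodes a membrane protein that promotes degradation of ErbB receptors and also marks stem cells of the crypt. Lrig1 (chr6:94604529-94700158, minus strand) had 72.6 and 66.2 TPM in the controls against 51.7 and 67.5 TPM with the mimic, with overlapping groups in TPM, and its log2 fold change was -0.26 (SE 0.11, adjusted p = 0.217 in edgeR). Its exons overlap those of Slc25a26 on the opposite strand, and its counts were not whole in any library, so reads were divided between genes. Errfi1 encodes the cytosolic inhibitor MIG6, which is induced by ERK and blocks the kinase domains of EGFR and ErbB2. Errfi1 (chr4:150853919-150868892, plus strand) had 36.1 and 31.9 TPM in the controls against 24.9 and 26.7 TPM with the mimic, with no overlap. Its log2 fold change was -0.44 (SE 0.10, 95% interval -0.68 to -0.20), just short of the threshold at an adjusted p of 0.0657 in the edgeR quasi-likelihood test. It passed in edgeR's exact test (adjusted p = 0.0136) and in DESeq2 (0.0330). It did not pass with library totals in place of TMM factors (adjusted p = 0.0752 in edgeR) or in limma on log2(TPM + 1) (0.182). Whichever library was left out, its log2 fold change lay between -0.52 and -0.35.

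The rest of the pathway was described with 73 further genes in 8 role groups, of which 67 were tested. At an adjusted p under 0.05 by the edgeR quasi-likelihood test, 7 were lower (10.4% of those tested, against 2.17% of all tested genes) and 0 were higher (1.21% of all). Of the 7, 4 were at least 2-fold lower, against 1.42% of all tested genes. The median log2 fold change of the list was -0.02, against -0.01 over all tested genes. In either direction, 25 of the 67 had an unadjusted p under 0.05 in edgeR. This was a larger share than over all tested genes (4201 of 17155, 24.5%). Without control replicate 2 the list had 11 lower and 6 higher, while all genes gave 1006 lower and 1010 higher of 18257 tested. DESeq2 on the 4 libraries gave 10 lower and 4 higher in the list, with 654 lower and 634 higher over all genes. The 7 genes were Egr1, Fos, Jun and Epha2 among the early response and ERK target genes, and Dusp6, Dusp4 and Spry1 among the feedback inhibitors. In CPM, both mimic libraries were below both controls for 20 of the 67 genes and above both for 24. Over all tested genes these shares were 29.5% and 28.9%. The 7 genes were all among the 20, which their selection by the test nearly fixes in advance.

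Egr1, Fos and Jun encode transcription factors that growth factor signals induce within minutes. Egr1 had 45.9 and 28.8 TPM in the controls against 6.52 and 11.03 TPM with the mimic, a log2 fold change of -2.17 (SE 0.27, adjusted p = 0.0121 in edgeR), the largest fall of the list. Fos had 12.1 and 8.91 TPM in the controls against 3.23 and 5.32 TPM with the mimic (log2 fold change -1.40, SE 0.24, adjusted p = 0.0318 in edgeR). Fos is the only one of the 7 genes with a TGAATGT match in its 3' UTR. Jun had 35.3 and 33.9 TPM in the controls against 18.8 and 21.98 TPM with the mimic (log2 fold change -0.83, SE 0.10, adjusted p = 0.0103 in edgeR), and its exons overlap those of Junos on the opposite strand. Epha2, an ephrin receptor gene and known ERK target, had 14.02 and 13.6 TPM in the controls against 6.18 and 8.61 TPM with the mimic (log2 fold change -0.89, SE 0.14, adjusted p = 0.0251 in edgeR). In all, 4 of the 13 tested genes of this group were called lower (30.8%, against 2.17% of all tested genes), and the other 9 did not pass. A log2 fold change below 0 was found for 11 of the 13 and above 0 for 2, with a median of -0.39. The 4 called genes thus do not stand for the whole group. Ier2 did not pass (log2 fold change -0.25, adjusted p = 0.217 in edgeR), nor did Myc, on the other side of 0 (0.29, adjusted p = 0.164 in edgeR). Ccnd1, the cyclin D1 gene, named after its values were seen, had 18.8 and 18.3 TPM in the controls against 23.9 and 28.1 TPM with the mimic (log2 fold change 0.46, adjusted p = 0.0530 in edgeR). With all 4 libraries it was called higher by DESeq2 and by the exact and likelihood-ratio tests of edgeR. It was also called higher with library totals and with no filter on low counts. It was not called with RLE factors, with at least 10 counts in every library or by limma on TPM.

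Dusp6 and Dusp4 encode phosphatases that inactivate ERK and related kinases and are themselves induced by ERK. Dusp6 had 16.0 and 15.8 TPM in the controls against 5.48 and 7.72 TPM with the mimic, a 2.52-fold lower level (log2 fold change -1.33, SE 0.18, adjusted p = 0.0153 in edgeR). Dusp4 had 33.1 and 33.2 TPM in the controls against 18.3 and 24.5 TPM with the mimic (log2 fold change -0.70, SE 0.12, adjusted p = 0.0318 in edgeR), and the call was lost without mimic replicate 3 (-0.55, adjusted p = 0.0953). Spry1 encodes Sprouty 1, an inhibitor of receptor tyrosine kinase signaling upstream of ERK. Spry1 had 7.86 and 5.74 TPM in the controls against 2.77 and 4.12 TPM with the mimic (log2 fold change -1.07, SE 0.22, adjusted p = 0.0491 in edgeR). Its call was lost without control replicate 1 (adjusted p = 0.105 in edgeR), without mimic replicate 3 (0.0896) and with library totals alone (0.0551), and its counts were not whole in any library. The other 7 of the 10 genes in this group did not pass, among them Lrig3 (log2 fold change 0.31, adjusted p = 0.147 in edgeR).

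**Figure D4:**
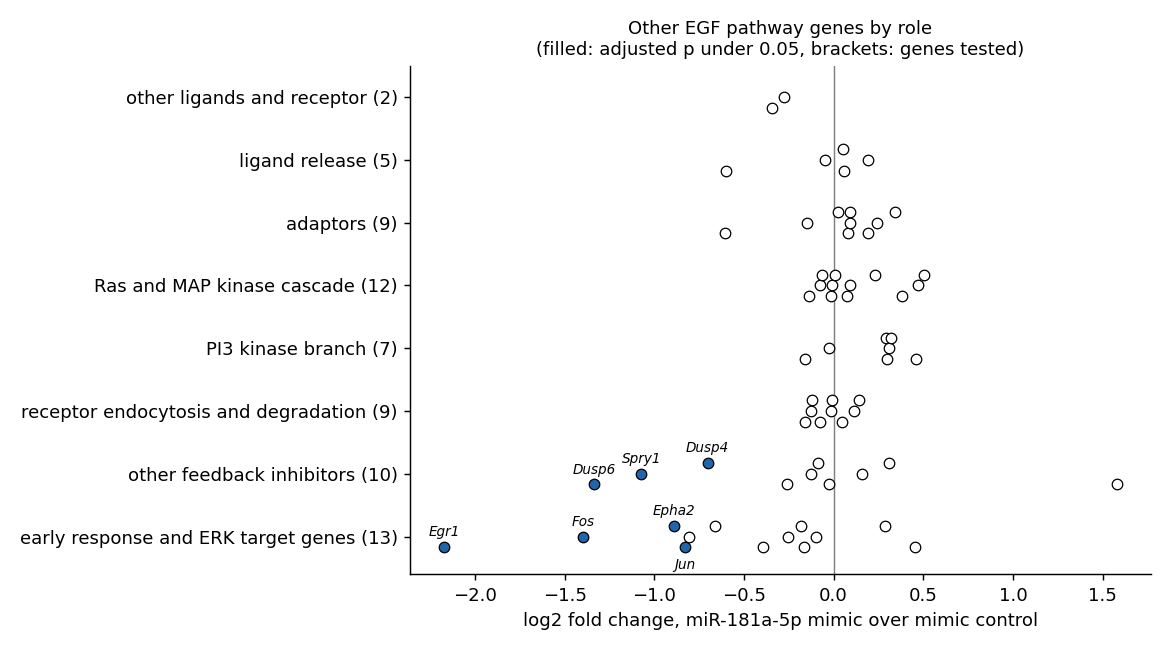
Log2 fold change, miR-181a-5p mimic over mimic control, of the 67 tested pathway genes by role, with 1 point per gene. The 7 filled points, at an adjusted p under 0.05 in edgeR, all lie to the left of 0 and in the lower 2 groups, and the open point at 1.58 is Spry4, which had 12 counts in the controls against 35 with the mimic in all.

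In the other 6 role groups no gene passed in the edgeR quasi-likelihood test. These were 5 genes of ligand release, 9 adaptors, 12 genes of the Ras and MAP kinase cascade, 7 of the PI3 kinase branch, 9 of receptor endocytosis and degradation and the 2 tested further ligands. At an unadjusted p under 0.05 there were 1, 3, 4, 4, 0 and 0 genes in these groups. Genes that DESeq2 called in these groups included Akt1 and Map2k2 (higher) and Gab1 (lower), of which Map2k2 and Gab1 are named after their values were seen. Mapk3, which encodes the kinase ERK1 and had the highest mean TPM of its group, had a log2 fold change of -0.02. Adam10, a sheddase gene for EGF family precursors, had 57.7 and 67.6 TPM in the controls against 68.4 and 77.5 TPM with the mimic (log2 fold change 0.19, adjusted p = 0.319 in edgeR), and Adam9 had a log2 fold change of 0.05. The adaptor genes Grb2 and Eps8 had log2 fold changes of 0.09 and 0.02, and the endocytosis genes Eps15 and Cblc of 0.14 and -0.12. In the PI3 kinase branch the median log2 fold change was 0.30. Akt1, which encodes a kinase activated downstream of PI3 kinase, had 65.5 and 72.6 TPM in the controls against 96.2 and 96.8 TPM with the mimic (log2 fold change 0.46, SE 0.11, adjusted p = 0.0651 in edgeR), and Pik3r1 had a log2 fold change of -0.02.

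Markers of the main epithelial cell types were set beside these results. Of 7 Paneth cell markers 0 passed in edgeR. An unadjusted p under 0.05 was found for 3 of the 7, all lower with the mimic, against 24.5% of all tested genes. In this list 6 had a log2 fold change below 0 and 1 above, with a median of -0.80. The 7 markers summed to 2340 and 1215 TPM in the controls against 1252 and 1571 TPM with the mimic, with overlapping groups. Of 6 enteroendocrine markers 0 passed, with 1 at an unadjusted p under 0.05, and they summed to 357 and 227 TPM in the controls against 272 and 279 TPM with the mimic. Of 6 tuft cell markers 4 were tested and 0 passed, with 0 at an unadjusted p under 0.05, and the list summed to 6.64 and 3.74 TPM in the controls against 4.62 and 5.81 TPM with the mimic. Of 5 stem cell markers 1 was lower, Lgr5, the gene of an R-spondin receptor, with 114.6 and 92.7 TPM in the controls against 26.9 and 54.1 TPM with the mimic (log2 fold change -1.38, adjusted p = 0.0396 in edgeR). An unadjusted p under 0.05 was found for 2 of the 5, Lgr5 and Smoc2, which moved in opposite directions. Smoc2 was higher with the mimic but did not pass (log2 fold change 0.48, adjusted p = 0.0869 in edgeR). In all, 3 of the 5 had a log2 fold change above 0 and 2 below, with a median of 0.05. The stem cell list as a whole summed to 603 and 392 TPM in the controls against 460 and 614 TPM with the mimic, with overlapping groups. The part of these cell types in the changes of Hbegf, Areg, Erbb3 and Ereg was not tested.

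**Figure D5:**
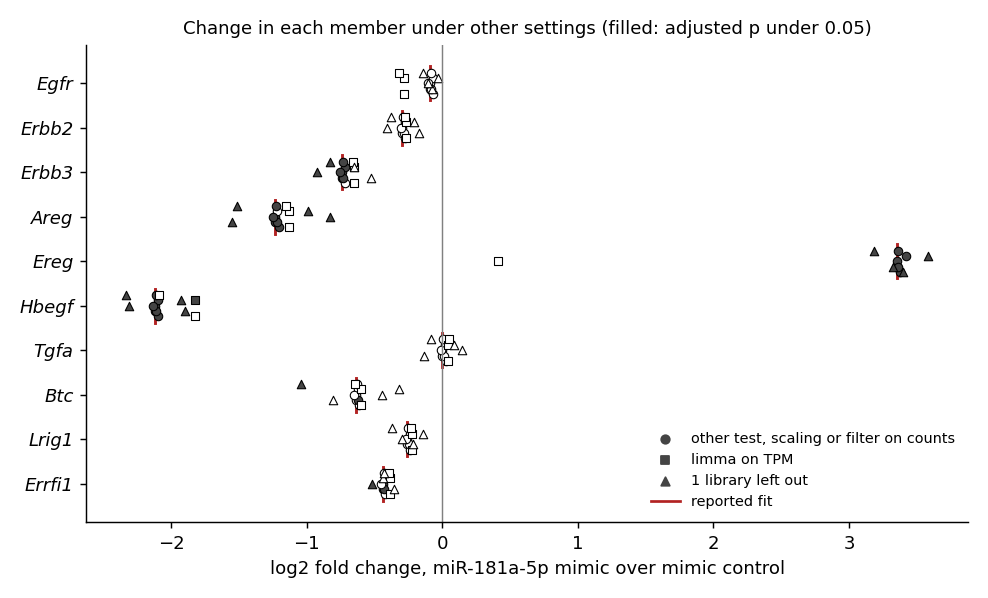
Log2 fold change of each gene under 10 other tests, scalings, filters and TPM fits and with each of the 4 libraries left out, with the reported value as a red line and filled marks at an adjusted p under 0.05. Hbegf lay between -2.33 and -1.82 and was past the threshold in 12 of 14 settings, whereas Erbb3 was past it in 8 of 14.

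Across all 14 other settings, Hbegf kept its direction with log2 fold changes between -2.33 and -1.82 and passed the threshold in 12. Areg lay between -1.55 and -0.83 and passed in 10, and Erbb3 lay between -0.92 and -0.53 and passed in 8. Ereg could be tested in 11 settings and passed in 10. Where filterByExpr was used it entered through its mimic libraries alone, so passing in those settings does not support its rise. Without that filter its adjusted p was 0.00208 in DESeq2, 4.03e-09 in edgeR and 0.264 in limma on log2(TPM + 1). The edgeR fit without the filter called 2781 genes, against 580 in the reported fit. It gave Egr1 an adjusted p of 2.87e-59, against 0.0121 in the reported edgeR fit. Its adjusted p-values are therefore not comparable with those of the reported fit. With 10 counts required in every library Ereg could not be tested. Errfi1 passed in 5 of the 14 settings and Btc in 2, while Egfr, Erbb2, Lrig1 and Tgfa passed in none.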

How the data were processed

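RNA-seq of 4 SI organoid libraries, 2 with the miRNA mimic control and 2 with the miR-181a-5p mimic, was used. Single reads of 100 cycles were trimmed with Trimmomatic and quantified with RSEM on GRCm38 transcripts; versions and the annotation release are not given in the sources used here. The labels name poly(A) enrichment and the supplemental methods name ribosomal RNA depletion. The authors deposited expected counts per gene without normalization and, in a second table, TPM, which sum to the same total in each library. In each of these tables, a further 3 columns matched no sample and were not used. Groups and replicate numbers came from the sample titles.

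The expected counts, rounded to integers, entered edgeR 4.0.16 (R 4.3.3) with group as the only term. Genes were filtered with filterByExpr, libraries were scaled by TMM, and the quasi-likelihood test followed estimateDisp and glmQLFit, with Benjamini-Hochberg adjustment over 17155 genes. Genes were called at an adjusted p under 0.05, and also with a fold change of at least 2, the study's threshold. The standard error is the log2 fold change divided by the root of the F statistic. CPM are scaled to TMM-corrected library sizes. Symbols were matched for 55141 of 55487 genes, and coordinates, exon overlaps and 3' UTRs came from GENCODE M21 (GRCm38). The fit was tested on simulated data. Libraries held 31104900 to 38111700 expected counts (rounded), and for Ereg, with few control counts, depth limits the precision. An exact permutation test of 1 gene could not go below p = 0.333. No set test was run.

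The 10 genes, the pathway and marker lists and the tests were chosen with earlier results of these data known. Named pathway genes are those with an adjusted p under 0.05 and the 2 with the highest mean TPM in each role group. Spry4, Lgr5, Smoc2, Map2k2, Gab1, Ccnd1 and the overlapping genes were named after their values were seen. Results of some genes of the pathway list are not reported here. Alternatives were DESeq2 1.42.0, the exact and likelihood-ratio tests of edgeR, RLE factors, library totals, no filter, at least 10 counts in every library, limma 3.58.1 on log2 TPM after adding 1 or 0.1, for genes that reached 1 TPM in 2 libraries, the same with 1 added and no filter, and each library left out in turn. Plots were drawn with matplotlib 3.10.9.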

Additional observations from a re-analysis of the deposited data

How the results depend on the processing

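No paired analysis was possible because the groups share no replicate number. Calls at an adjusted p under 0.05 were 3 lower and 1 higher of the 10 genes, 7 lower and 0 higher of the pathway list, and 373 lower and 207 higher of all genes. The pathway list gave 11 lower and 4 higher with edgeR's exact test (all genes 1027 and 761), 11 and 5 with the likelihood-ratio test (1072 and 792), and 11 and 5 without a filter (1511 and 1270), where 5 of the 10 genes were lower. With DESeq2, 1 gene of the 10 was lower by at least 2-fold, the pathway list had 4 higher, and all genes gave 654 lower and 634 higher. With library totals the pathway list had 2 higher, and 46.0% of all calls were increases, against 35.7% with TMM factors. With at least 10 counts in every library 0 members were higher, since Ereg was not tested. On log2(TPM + 1), limma called 1 of the 10 genes lower, also by at least 2-fold, and 0 higher, and of all genes 43 lower and 32 higher (2925 genes at an unadjusted p under 0.05). On log2(TPM + 0.1) it called 0 of the 10 genes, 16 genes lower and 11 higher (2875 unadjusted), and without a filter 0 of the 10, 0 lower and 2 higher (3960 unadjusted). These TPM fits called 0 genes of the pathway list. A pseudocount shrinks the fold change of genes with low TPM.

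When 1 library was left out, the lone library was assumed to vary like the other group. Members lower then numbered 2 to 4, those lower by at least 2-fold 1 to 3, and 1 was higher each time. The pathway list had 5 to 11 lower and 0 to 6 higher, and all genes 274 to 1006 lower and 174 to 1010 higher, with 1006 lower and 1010 higher without control replicate 2. Tgfa turned from 0.00 to -0.00996 with at least 10 counts in every library, to -0.13 without control replicate 1 and to -0.08 without mimic replicate 4, and was 0.15 without control replicate 2. The cause of these shifts was not tested. RLE factors left each count within 1.5 times.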

Other observations

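The level of Egfr depended on the table used. Its log2 fold change was -0.09 from the expected counts, with an adjusted p of 0.610 in edgeR, and -0.28 from log2(TPM + 1). The ratio of count to TPM, scaled by 868 genes with a single annotated transcript, gives the effective length that RSEM used for a gene. For Egfr this length, relative to control replicate 1, was 0.96 in control replicate 2, 1.29 in mimic replicate 3 and 1.11 in mimic replicate 4, and Egfr has 5 annotated transcripts. For the other 9 genes the relative length lay between 0.90 and 1.11. Single transcripts were not quantified in the tables used here.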
